A study of Homo sapiens with 2 samples.

Results

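The miR-23/27/24 guide strands are the 5 mature miRNAs hsa-miR-23a-3p, hsa-miR-27a-3p, hsa-miR-24-3p, hsa-miR-23b-3p and hsa-miR-27b-3p, which are cut from a pair of related primary transcripts. They were picked by name, written here without the human prefix, and all 5 were found among the 407 miRNAs of the count table. Small RNA was sequenced from the human breast cancer cell line BT549, made to overexpress SNHG15, a long non-coding RNA, fused to MS2 loops that the phage MS2 coat protein (MCP) binds. The MBP-MCP resin pulldown is RNA from their lysate that stayed on amylose resin coated with MCP fused to maltose binding protein (MBP). The bare resin control is RNA from lysate of the same SNHG15-MS2 overexpressing cells on amylose resin without that protein; both incubations ran for 5 h at 4 °C. The comparison addresses which miRNAs stay with SNHG15. There was 1 library per resin, so no difference below has a replicate check, and every interval covers counting error only. RNA held by the MBP-MCP protein and RNA held through SNHG15 cannot be told apart with these libraries.

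The pulldown library held 202560 reads and the control library 111414. Reads of marker miRNAs were counted, which describes the libraries but cannot identify the cell line. Of 6 epithelial miRNAs of the miR-200 and miR-205 families, 1 was in the table, with 1 read in each library, whereas 5 of 5 miRNAs listed for mesenchymal-like or basal breast cancer lines took 10.4% of reads in the pulldown and 11.3% in the control. Most reads of the latter list were of miR-125b-5p and miR-21-5p, with 10378 and 8475 in the pulldown. Of 2 endothelial, 3 erythroid, 4 leukocyte, 3 muscle and 1 liver markers, 2, 2, 2, 1 and 1 were in the table. The endothelial miR-126 arms together held 489 pulldown and 334 control reads, and the other lists held at most 14 reads in a library.

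A miRNA guide strand is loaded into an Argonaute protein and finds target RNAs mainly through its seed, bases 2 to 8. In vertebrates the miR-23, miR-27 and miR-24 hairpins sit in a row on 1 primary transcript, which exists in duplicate, so that co-transcribed members start from the same transcripts and can differ through later processing, stability and loading. The family is studied in breast cancer as well as in muscle, blood and vessels. miR-23 represses glutaminase, miR-27a represses FOXO1 and ZBTB10, miR-27b represses the adipocyte regulator PPARG, and miR-24 represses cell cycle genes such as E2F2.

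The mature sequences are shown because the members fall into 3 seed groups and because the paralogues differ by single bases near their 3′ ends. They are RefSeq sequences on GRCh38.p14, written 5′ to 3′ with the seed in capitals.
miR-23a-3p: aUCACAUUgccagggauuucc
miR-23b-3p: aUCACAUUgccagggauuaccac
miR-27a-3p: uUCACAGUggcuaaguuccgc
miR-27b-3p: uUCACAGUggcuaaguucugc
miR-24-3p: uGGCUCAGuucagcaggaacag
Over the 21 bases they share, miR-23a-3p and miR-23b-3p differ by U19A, given from the first to the second and counted from 1 at the 5′ end, and miR-23b-3p is 2 bases longer. miR-27a-3p and miR-27b-3p, both 21 bases long, differ by C19U. How reads too short to reach base 19 were shared between paralogues is not stated in the labels or headers, so values of single a and b members are uncertain. Their sums are free of this doubt only if each such read was counted once, which is not stated either.

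The miR-23a, miR-27a and miR-24-2 hairpins span 373 bases of the minus strand at chr19:13836287-13836659, inside an exon of the non-coding gene AC020916.1 in GENCODE 29. The miR-23b, miR-27b and miR-24-1 hairpins span 881 bases of the plus strand at chr9:95085208-95086088 within the protein-coding gene C9orf3. There MIR23B and MIR27B lie in an intron and MIR24-1 overlaps an annotated exon. The MIR24 hairpins are printed because both hold the identical guide, here in capitals, so that reads of miR-24-3p cannot be assigned to chromosome 19 or chromosome 9.
MIR24-2: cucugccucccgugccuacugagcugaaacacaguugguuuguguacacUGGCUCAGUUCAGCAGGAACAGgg
MIR24-1: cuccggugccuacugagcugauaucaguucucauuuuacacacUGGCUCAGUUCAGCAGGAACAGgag

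The miR-27 guides took a smaller share of the pulldown library than of the control library, the miR-23 guides took about the same share of each, and miR-24-3p lay between them. Together the 5 members made up 5228 reads (2.58%) of the pulldown library and 3736 reads (3.35%) of the control library. The ratio of reads per 1000000 library reads (RPM) was 0.770 for the sum (95% interval 0.738 to 0.803). Summed by seed, miR-27a-3p and miR-27b-3p had 2430 pulldown and 2040 control reads, a ratio of 0.655 (0.617 to 0.695). miR-23a-3p and miR-23b-3p had 1106 pulldown and 617 control reads, a ratio of 0.986 (0.893 to 1.09). A lower share can come from less of a miRNA or from more of the others on that resin in a bulk lysate, and these cannot be told apart here.

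miR-27a-3p, the member known in breast cancer cells for repressing ZBTB10 and FOXO1, had 1345 pulldown and 1219 control reads. These are 6640 RPM in the pulldown and 10941 RPM in the control, a ratio of 0.607 (0.561 to 0.656) and a log2 ratio of −0.72. By reads it ranked 18th in the pulldown and 13th among control miRNAs. Its paralogue miR-27b-3p had 1085 pulldown and 821 control reads, or 5356 RPM in the pulldown and 7369 RPM in the control. Its ratio was 0.727 (0.663 to 0.797) and its log2 ratio −0.46. Both miR-27 guides therefore had intervals below equal shares, and neither lost that with TMM factors or DESeq2 size factors, where the upper bounds were 0.751 and 0.796 for miR-27a-3p and 0.912 and 0.966 for miR-27b-3p.

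miR-24-3p, which represses E2F2, was the most abundant member in the pulldown library, with 1692 pulldown and 1079 control reads. Its 8353 RPM in the pulldown and 9685 RPM in the control gave a ratio of 0.863 (0.799 to 0.932) and a log2 ratio of −0.21. That ratio depended on the scaling: its interval was 0.914 to 1.07 with TMM factors and 0.968 to 1.13 with DESeq2 size factors, both of which include 1.

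miR-23a-3p, which represses glutaminase, had 1017 pulldown and 565 control reads, 5021 RPM in the pulldown and 5071 RPM in the control. Its ratio was 0.990 (0.892 to 1.10) and its log2 ratio −0.01. With TMM factors the ratio was 1.13 (1.02 to 1.26) and with DESeq2 size factors 1.20 (1.08 to 1.33), above equal shares. miR-23b-3p was the rarest member, with 89 pulldown and 52 control reads, 439 RPM in the pulldown and 467 RPM in the control. Its ratio of 0.941 had an interval of 0.661 to 1.35, which includes 1. It lay above miR-27a-3p, whose double ratio against it was 0.645 (0.445 to 0.927), a ratio of reads in the pulldown library divided by the same ratio in the control library. The authors' deposited table gives miR-27a-3p a log2 fold change of −0.72 with p = 0.0136 and an adjusted p of 0.259. It leaves the members without a call of up or down, like most of the 407 miRNAs. Those calls do not follow the adjusted p. miR-92a-3p, with a lower adjusted p than miR-27a-3p and a log2 fold change of 0.68, also has none. Some miRNAs with the adjusted p of miR-27a-3p are called down, with larger falls.

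**Figure D1:**
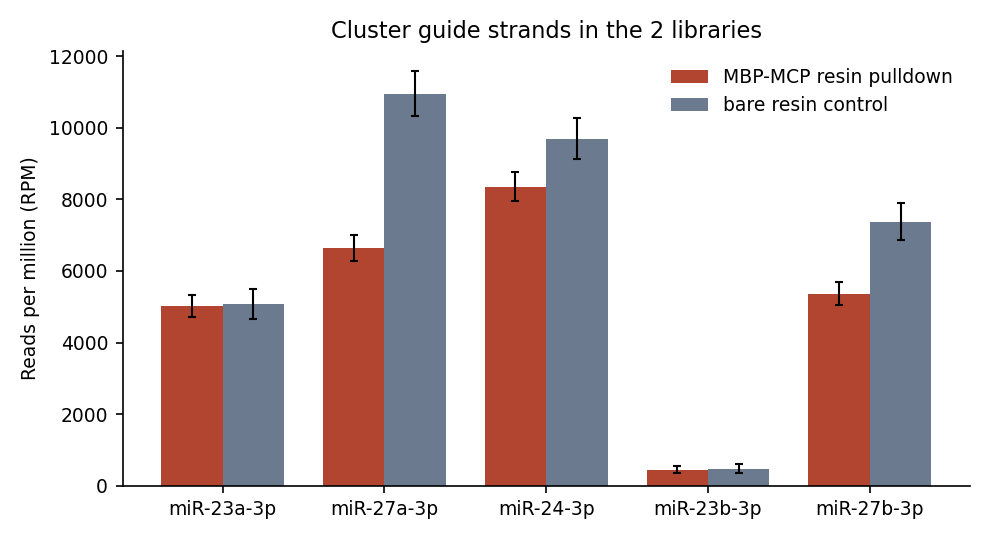
Levels in RPM in the MBP-MCP resin pulldown (red) and the bare resin control (grey) for each member, with exact Poisson 95% intervals for counting error as bars and 1 library per resin. The bars of miR-27a-3p stand at 6640 RPM in the pulldown and 10941 RPM in the control, and those of miR-23a-3p overlap.

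A set of 161 miRNAs reached 20 reads in at least 1 library. Of the members, 1 of 5, miR-27a-3p, was 1.5-fold or more lower in the pulldown, against 14.3% of these 161. Intervals lay below equal shares for 3 of the 5, miR-27a-3p, miR-27b-3p and miR-24-3p, against 23.6% of the 161 and 29.7% of the 37 that reached 500 reads in either library. Under TMM or DESeq2 scaling this held for 2 of the 5, both miR-27 guides, against 9.32% (TMM) and 7.45% (DESeq2) of the 161. Under those scalings 1 of the 5, miR-23a-3p, had an interval above equal shares, against 22.4% (TMM) and 27.3% (DESeq2). Narrow intervals come with many reads. Among the 37, where 4 members remain without miR-23b-3p, intervals below equal shares held for 2 of 4 under TMM (16.2% of the 37) and under DESeq2 scaling (13.5%). An interval above equal shares, as for miR-23a-3p, was common there, at 64.9% with TMM and 73.0% with DESeq2. Among those 37, miR-27a-3p had the lowest log2 ratio, miR-128-3p was 3rd, miR-27b-3p 4th, miR-24-3p 9th and miR-23a-3p 16th from the lowest. The median log2 ratio was −0.21 over the members, −0.16 over the 161 and 0.01 over the 37. miRNAs next to miR-27a-3p in control reads were not all low: miR-125a-5p and miR-103a-3p had log2 ratios of 0.13 and 0.11, miR-31-5p, miR-29a-3p and miR-24-3p of −0.27, −0.29 and −0.21, and miR-9-5p of −0.69.

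**Figure D2:**
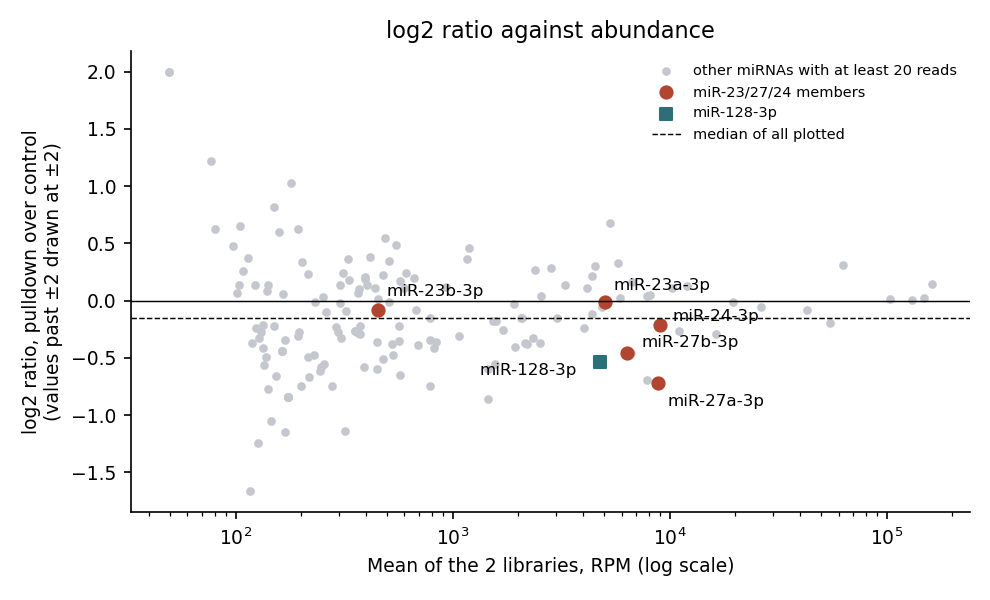
log2 ratio of RPM, pulldown over control, against the mean RPM of both libraries (log scale) for the 161 miRNAs that reached 20 reads. The miR-27 guides and miR-128-3p lie low among abundant miRNAs, at −0.72, −0.46 and −0.54, and miR-23a-3p lies at −0.01.

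Ratios between members of 1 library do not depend on how libraries are scaled, and co-transcribed members can be compared that way. miR-27a-3p had 1.32 reads for each read of miR-23a-3p in the pulldown, against 2.16 in the control. The double ratio, the pulldown value over the control value, was 0.613 (exact conditional 95% interval 0.538 to 0.699). Of the reads of miR-27a-3p and miR-24-3p together, miR-27a-3p had 44.3% in the pulldown library (Clopper-Pearson interval 42.5% to 46.1%) and 53.0% in the control library (51.0% to 55.1%). The order of this pair was thus turned round, with miR-24-3p ahead in the pulldown and miR-27a-3p ahead in the control, and the double ratio was 0.704 (0.630 to 0.786). miR-24-3p against miR-23a-3p gave 1.66 in the pulldown and 1.91 in the control, a double ratio of 0.871 (0.765 to 0.992) that just excluded 1. The 2 double ratios with miR-24-3p include its reads from chromosome 9.

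On the chromosome 9 transcript miR-27b-3p had 12.2 reads for each read of miR-23b-3p in the pulldown library, against 15.8 in the control library. The double ratio of 0.772 (0.531 to 1.11) lay on the same side as for the chromosome 19 pair, but its interval included 1. Against miR-24-3p, whose reads can also come from chromosome 19, miR-27b-3p gave a double ratio of 0.843 (0.747 to 0.951), below 1. miR-24-3p against miR-23b-3p gave 0.916 (0.632 to 1.32), which included 1. With paralogues summed, the miR-27 guides had 2.20 reads for each miR-23 read in the pulldown library, against 3.31 in the control library, a double ratio of 0.665 (0.591 to 0.746).

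Between the paralogues, miR-27a-3p was lower against miR-27b-3p in the pulldown, with a double ratio of 0.835 (0.740 to 0.942). It made up 55.3% of their reads in the pulldown library (53.3% to 57.3%) and 59.8% in the control library (57.6% to 61.9%). The miR-23 pair had a double ratio of 1.05 (0.721 to 1.52), with miR-23a-3p at 92.0% of their reads in the pulldown and 91.6% in the control. The difference of 0.26 in log2 ratio between the miR-27 guides is 17th from the largest of 35 among lettered paralogues that reached 100 reads. The 5 other pairs that differ by a single base ran from 0.0068 to 0.62, a range that holds the miR-27 gap. Most of the 35 pairs, and most of those 5, set let-7 miRNAs against each other and share members, so they describe few families.

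**Figure D3:**
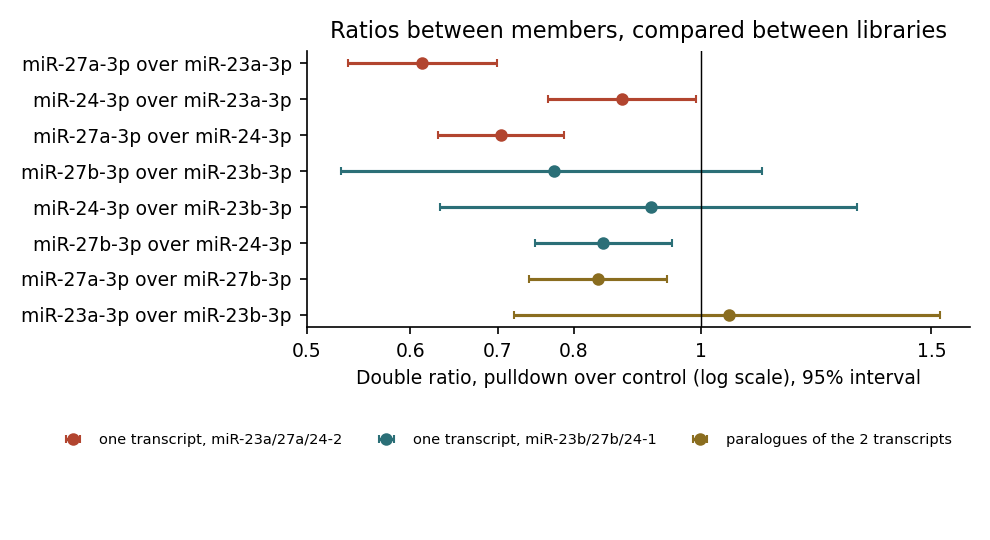
Double ratio (reads of the first miRNA over reads of the second in the pulldown, over the same ratio in the control; log scale) for 8 pairs of members, with exact conditional 95% intervals as bars. Every pair that sets a miR-27 guide against a miR-23 guide or miR-24-3p lies left of 1, from 0.613 to 0.843, with only the miR-23b-3p pair reaching across it.

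To see how far members of other miRNA clusters part, hairpins with mature sequences in the RefSeq table were paired where these lay within 10 kb on a strand. The more abundant arm of each was taken, with 100 reads or more in one of the libraries. This gave 21 pairs, 4 of them from the miR-23/27/24 transcripts; miR-23b-3p had too few reads to enter. miR-27a-3p and miR-23a-3p differed most of all, by 0.71 in log2 ratio. Next came miR-20a-5p and miR-92a-3p of the miR-17-92 cluster (0.57) and miR-15b-5p and miR-16-5p (0.52), followed by miR-27a-3p and miR-24-3p (0.51). The 4 member pairs had a median difference of 0.38 and the 17 other pairs one of 0.11, with a range of 0.00064 to 0.57. With hairpins up to 50 kb apart, the median of the 19 other pairs was 0.18. Among pairs with at least 500 reads for each miRNA, the 7 others reached 0.29. Pairs share members, miR-24-3p, miR-27a-3p and let-7a-5p among them, and are not independent. Many of the other pairs hold a let-7 miRNA. Some miRNAs of the other pairs, let-7a-5p among them, come from several hairpins, like miR-24-3p, so those pairs can mix loci.

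**Figure D4:**
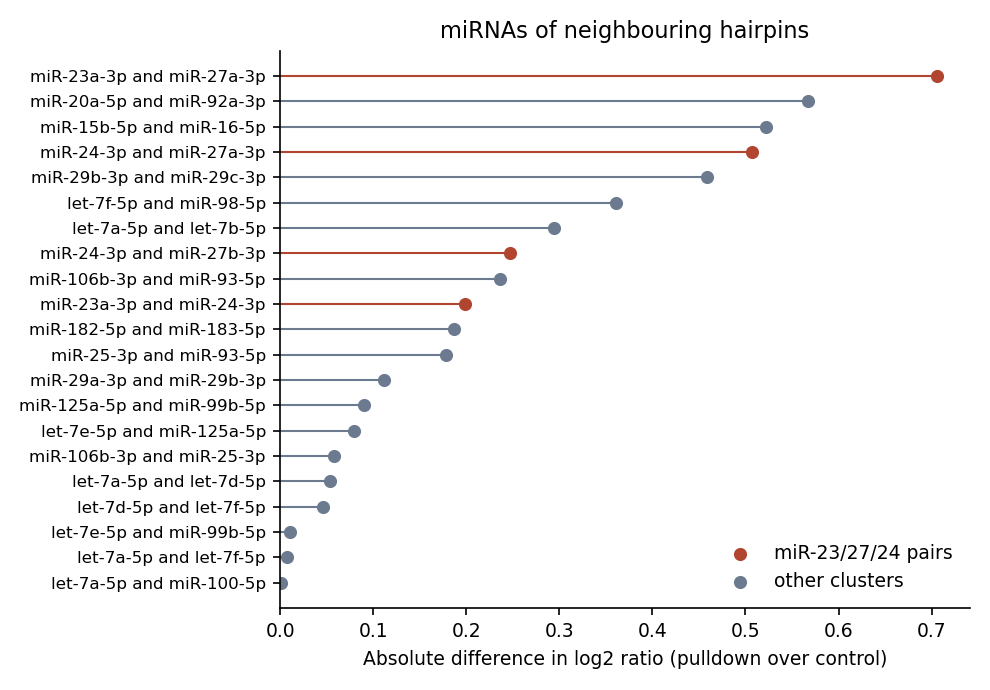
Absolute difference in log2 ratio (pulldown over control) between miRNAs of neighbouring hairpins for 21 pairs, with the 4 miR-23/27/24 pairs in red. The member pairs run from 0.20 to 0.71 and the pair of miR-23a-3p and miR-27a-3p stands at the top.

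The other arms of the same hairpins, usually degraded after the guide is loaded, were rare. miR-27a-5p had 22 pulldown reads and 5 control reads, and its ratio of 2.42 had an interval of 0.894 to 8.18. It stood on the other side of equal shares from its own guide: it made up 1.61% of the reads of both arms in the pulldown library (1.01% to 2.43%) and 0.408% in the control library (0.133% to 0.951%), a double ratio of 3.99 (1.47 to 13.5). miR-23a-5p had 8 pulldown and 10 control reads, miR-23b-5p 5 and 1, and miR-27b-5p 2 and 2. Their double ratios against their guides all had intervals that included 1. miR-24-1-5p, miR-24-2-5p and miR-3074, which is annotated across the MIR24-1 hairpin on the opposite strand, are not in the table.

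The MIR27A hairpin is shown because the ratios of its arms lie on opposite sides of 1; the guide miR-27a-3p is in capitals, and miR-27a-5p (aGGGCUUAgcugcuugugagca, its own seed in capitals) lies on the 5′ side.
MIR27A: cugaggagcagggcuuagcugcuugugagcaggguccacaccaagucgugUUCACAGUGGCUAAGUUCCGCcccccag

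miRNAs outside the clusters that share a member's seed, or hold it moved by 1 base, were looked up among RefSeq mature sequences. Of these, miR-128-3p, a miRNA enriched in brain that represses BMI1, was in the table; miR-23c, miR-9985, miR-216a-3p and miR-4437 were not. Its seed is the miR-27 seed moved by 1 base.
miR-128-3p: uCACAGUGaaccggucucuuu
It had 791 pulldown and 632 control reads, a ratio of 0.688 (0.619 to 0.766) and a log2 ratio of −0.54, between those of the miR-27 guides. Its interval also stayed below 1 with TMM factors (0.709 to 0.876) and with DESeq2 size factors (0.751 to 0.928). Its interval and those of both miR-27 guides thus lay below equal shares under these 3 scalings, as did 29.7%, 16.2% and 13.5% of the 37 miRNAs that reached 500 reads, with total reads, TMM and DESeq2 scaling. Abundant miRNAs with other seeds had similar ratios with total reads, 0.618 for miR-9-5p and 0.729 for miR-7-5p, the second named after its value was seen. Their log2 ratios also stayed negative under the other scalings. These were −0.50 with TMM and −0.42 with DESeq2 size factors for miR-9-5p, and −0.26 and −0.18 for miR-7-5p. Low ratios under these scalings were thus not limited to miRNAs with the miR-27 seed or that seed moved by 1 base. The GC content of the members, 47.6% to 54.5%, and their length, 21 to 23 bases, lay within the range of the 62 miRNAs with at least 100 reads and a RefSeq sequence, over which log2 ratio had a Spearman coefficient of 0.24 with GC content and 0.28 with length. The miR-27 guides, miR-23a-3p and miR-128-3p are 21 bases long, the shortest among the 62, a length they share with others, miR-31-5p among them.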

How the data were processed

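The authors deposited whole-number read counts per miRNA for both libraries, with no normalisation, and RPM values, headed Tpm in the file, which equal counts over library totals 69 and 39 reads above the sums of the table. The authors' log2 fold changes and p-values are deposited beside them, and the settings behind these p-values are not given per the file headers. The submitters' processing notes name GRCh38. Per the labels' protocols, a QIAseq kit was used for the libraries. The aligner, miRNA release and any use of molecular identifiers are not stated in labels or headers. There were 0 columns of other samples.

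RPM was computed from the sums of the table. A prior count of 0.5, in proportion to library size, was added before log2 ratios. Ratios have exact (Clopper-Pearson) conditional intervals and double ratios the exact conditional interval of their 4 counts (scipy 1.17.1), at 95%. With 1 library per resin no p-value was computed. Scalings tried were TMM (edgeR 4.0.16), DESeq2 size factors (1.42.0) and other totals. Named miRNAs were the members, other arms of their hairpins, miRNAs sharing a seed, the 3 on either side of miR-27a-3p in control reads and the 3 widest neighbouring pairs; lettered paralogues were compared after their values were seen. The members and lists were chosen with earlier results of these data known. RefSeq sequences matched 321 of the named miRNAs. Calculations were tested on simulated data. A planned search for seed matches in SNHG15 is not reported here.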

Additional observations from a re-analysis of the deposited data

How the results depend on the processing

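No paired analysis was possible because each resin has 1 library, and leaving out a library was not possible for the same reason. With TMM factors the log2 ratios were −0.53 for miR-27a-3p, −0.26 for miR-27b-3p, −0.018 for miR-24-3p (also the members' median), 0.18 for miR-23a-3p and −0.18 for the sum. With DESeq2 size factors they were −0.44, −0.18, 0.064 (also the median), 0.26 and −0.10, so that miR-24-3p and the median turned positive. Totals without the 5 most abundant miRNAs gave −0.60 for miR-27a-3p, −0.089 for miR-24-3p and the median, and −0.25 for the sum. These scalings raised the median of the 161 miRNAs by 0.19, 0.28 and 0.12, and 3 of the 5 members lay below that median under each. The double ratios do not move with scaling, and a prior count of 5 moved none beyond its interval.

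Of the 161 miRNAs, 23 were at least 1.5-fold lower and 10 higher, and 38 intervals lay below and 18 above equal shares. TMM factors gave 11 lower, with 15 intervals below and 36 above. DESeq2 size factors gave 5 lower and 22 higher, with 12 intervals below and 44 above. A minimum of 100 reads left 5 lower, 1 higher and 22 intervals below. A minimum of 500 left 2 lower, 1 higher and 11 intervals on each side. Named miRNAs alone gave 13 lower. The higher minimums and the limit to named miRNAs hold fewer miRNAs by construction. Depth limits miR-23b-3p and the other arms most.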
